A study of Mus musculus with 41 samples.

Results

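The genes described here were 10 MHC class I antigen presentation genes, chosen by name from the 55536 gene identifiers of each count table through their GENCODE M21 symbols: B2m, H2-K1, H2-D1, Tap1, Tap2, Tapbp, Psmb8, Psmb9, Psmb10 and Nlrc5. All 10 were present in both tables. The series follows what changes in mouse male germline cells when RHOX10, a homeobox transcription factor encoded on the X chromosome, is lost or switched on. All animals and cells were C57BL/6. RNA-seq was made from testicular germ cells of mice crossed to an OCT4-eGFP reporter line and sorted as eGFP+, and each library pooled the testes of 3 animals; 4 libraries carry the label wild-type and 4 the label Rhox10-null. The age of these mice is not given in the sources used here. iSLAM-seq, a 3′ end RNA-seq protocol built around metabolic RNA labelling, was made from germline stem (GS) cells cultured from testes of newborn mice. In all 24 of these libraries endogenous Rhox10 had been knocked down with an shRNA lentivirus. The cells then carried either a Rhox10-ERT2-mCherry fusion, which responds to 4-hydroxytamoxifen (here "Rhox10"), or an empty ERT2-mCherry vector ("Ctrl"), with 2 libraries per vector at 0, 0.5, 1, 2, 4 and 8 h. The sources used here do not say what the hours are counted from or whether Ctrl cells also received 4-hydroxytamoxifen, so in every change over time below an effect of the fusion and an effect of the drug cannot be told apart. CUT&Tag, which maps protein binding to DNA, gave a list of RHOX10 peaks from 3 libraries of knockdown cells that carried HA-tagged Rhox10.

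MHC class I molecules carry short peptides from inside a cell to its surface, where T cells read them. The peptides are cut by the proteasome, moved into the endoplasmic reticulum by a transporter and loaded onto a heavy chain paired with β2-microglobulin. Interferons switch many of these genes on together through STAT and IRF factors, and NLRC5 is a dedicated activator of class I promoters. Germ cells are known for low surface class I, while leukocytes and endothelial cells carry much of it.

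The 8 RNA-seq libraries held 6602089 to 8278887 counts, of which 8 dominant genes left 1379870 to 2128523 for all others, and the 24 iSLAM-seq libraries held 9419615 to 12645845. Rhox10 itself ran from 34.0 to 46.7 CPM (the usual library-size-scaled count, here with the trimmed mean of M values, TMM) in the Rhox10 libraries and from 0.202 to 2.42 in the Ctrl libraries, with the difference in place at 0 h. In RNA-seq 3 to 10 counts of it were found per wild-type library, against 4 to 11 per library labelled null, so the counts do not verify the genotype, and directions in RNA-seq are those of the labels. Germ cell markers were present in both assays: the 10 listed genes summed to 2142 to 2917 CPM in iSLAM-seq. In the cultured cells 6 of 12 leukocyte markers (Adgre1, Itgam, C1qa, C1qb, Tyrobp and Laptm5) averaged under 3 counts, and the leukocyte sum was 24.8 to 38.7 CPM in Ctrl and 23.1 to 36.2 CPM in Rhox10 libraries. Transcripts of other cell types were not absent from these cultures. Endothelial markers summed to 162 to 254 CPM in Ctrl and 146 to 189 CPM in Rhox10 libraries, and Sertoli markers to 256 to 493 and 301 to 630 CPM.

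The 2 Ctrl libraries at 0.5 h stood apart from each other, with a chi-square per degree of freedom of 30.0 against at most 5.13 for any other pair of replicates. Replicate 2 was the one far from the other Ctrl libraries: its log2 CPM correlated at 0.946 with their median, and the other 11 Ctrl libraries at 0.988 to 0.996. Several of the class I genes were low in it, with 2.46 CPM of Tap2 against 34.7 in replicate 1, and 8.51 CPM of Psmb9 against 54.5. Because all 24 libraries share an estimate of the spread, results below are given with all libraries and, where a call changes, without this pair.

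Of the 10 genes, 7 lie on chromosome 17 (GRCm38) in or beside the MHC, B2m on chromosome 2, and Psmb10 and Nlrc5 on chromosome 8. Psmb9 (34181987 to 34187764, minus strand), Tap1 (34187553 to 34197225, plus), Psmb8 (34197721 to 34201454, plus) and Tap2 (34203527 to 34216321, plus) form a row of neighbours. H2-K1 spans 33996017 to 34000347 on the minus strand, H2-D1 35262730 to 35267499 on the plus strand, and Tapbp 33915899 to 33929292 on the plus strand. Of 50-base words, 6.87% in H2-K1 and 13.9% in H2-D1 also occur in transcripts of other genes, so some of their reads could have been assigned elsewhere. Exons of Tapbp overlap other gene models over 29.0% of their bases, and the strand setting of the counting is not given in the sources used here.

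RefSeq promoter windows of GRCm38 (250 bases before to 50 after a start site) were found for 8 of the 10 genes, with Tap2 and Nlrc5 not in the table. The next 3 are shown because these genes had the lasting difference between vectors described below. They were picked after the values were seen. Capitals mark matches to an IRF-type repeat, spelled GAAANNGAA or GAANNGAAA, or to a kappa B site, spelled GGGNNTTCC, both searched on both strands.

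B2m, chr2:122147437-122147736, plus strand: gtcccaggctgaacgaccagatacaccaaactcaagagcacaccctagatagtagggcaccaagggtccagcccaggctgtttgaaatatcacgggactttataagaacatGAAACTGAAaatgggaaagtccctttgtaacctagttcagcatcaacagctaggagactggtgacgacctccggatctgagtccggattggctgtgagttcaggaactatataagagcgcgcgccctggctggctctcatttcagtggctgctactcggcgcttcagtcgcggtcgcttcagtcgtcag

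H2-K1, chr17:34000298-34000597, minus strand: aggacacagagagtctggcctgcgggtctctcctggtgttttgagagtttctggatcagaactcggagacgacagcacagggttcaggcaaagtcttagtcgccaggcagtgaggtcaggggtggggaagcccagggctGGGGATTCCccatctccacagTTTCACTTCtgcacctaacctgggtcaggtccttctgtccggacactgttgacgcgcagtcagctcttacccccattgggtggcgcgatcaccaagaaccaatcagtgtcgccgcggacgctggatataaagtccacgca

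H2-D1, chr17:35262844-35263143, plus strand: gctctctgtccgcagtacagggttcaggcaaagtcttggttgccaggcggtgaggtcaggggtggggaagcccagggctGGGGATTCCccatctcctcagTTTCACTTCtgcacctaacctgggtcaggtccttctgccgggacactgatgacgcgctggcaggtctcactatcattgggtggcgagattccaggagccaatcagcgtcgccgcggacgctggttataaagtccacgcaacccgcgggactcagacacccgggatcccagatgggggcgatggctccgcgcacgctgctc

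B2m held the repeat GAAACTGAA at -139 from the start site. H2-K1 and H2-D1 held the same pair, GGGGATTCC followed by TTTCACTTC, at -111 and -90 in H2-K1 and at -171 and -150 in H2-D1. The repeat occurs in 14.8% of all 32851 promoter windows of this length and the kappa B spelling in 5.82%. The remaining motif, the gamma-activated site TTCNNNGAA, found in 8.30% of windows, was matched in Psmb8 at -97 (TTCCCAGAA) and in no other of these promoters. Psmb10, Tapbp, Tap1 and Psmb9 had no match to any of the 3 motifs in these windows.

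In RefSeq, Tap1 and Psmb9 start 226 bases apart on opposite strands, and their windows share 275 bases. The GENCODE model of Psmb9 used for counting reaches further, and its exons overlap those of Tap1 over 212 bases. The window of Tap1 is shown because the neighbours differed in the time course. Capitals mark the first 10 transcribed bases of each gene at the RefSeq start sites, Psmb9 on the left (read on the opposite strand) and Tap1 on the right.

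Tap1 and Psmb9, chr17:34187306-34187605, plus strand: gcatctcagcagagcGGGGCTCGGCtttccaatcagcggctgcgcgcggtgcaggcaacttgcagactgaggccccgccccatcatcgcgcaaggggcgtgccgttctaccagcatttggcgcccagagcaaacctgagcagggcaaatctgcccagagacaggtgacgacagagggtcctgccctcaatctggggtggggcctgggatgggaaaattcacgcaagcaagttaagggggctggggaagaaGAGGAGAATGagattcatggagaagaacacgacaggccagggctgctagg

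The first question of the time course was whether the vectors differed in class I transcripts before the hours counted. B2m, the light chain, and the heavy chains H2-K1 and H2-D1 were higher in Rhox10 than in Ctrl cells at 0 h, 1.68-fold, 1.498-fold and 1.35-fold, and stayed so to 8 h. B2m was at 1469 and 1369 CPM in the 2 Rhox10 libraries at 0 h and at 869 and 818 CPM in the Ctrl libraries. Over all times its 12 Rhox10 libraries ran from 1331 CPM (median 1451) to 1550 CPM, and its 12 Ctrl libraries from 604 (median 873) to 968 CPM. The groups did not overlap at any of the 6 times. H2-K1 was at 212 and 199 CPM against 134 and 141 CPM at 0 h. Its Rhox10 libraries ran from 184 (median 199) to 212 CPM over the whole course and its Ctrl libraries from 75.0 (median 140) to 149 CPM. H2-D1 was at 439 and 405 CPM against 316 and 307 CPM at 0 h. Here the level itself drifted upward in both vectors, to 545 and 537 CPM in Rhox10 and 428 and 387 CPM in Ctrl cells at 8 h, so the highest Ctrl library at 8 h exceeded the lowest Rhox10 library at 0 h.

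**Figure D1:**
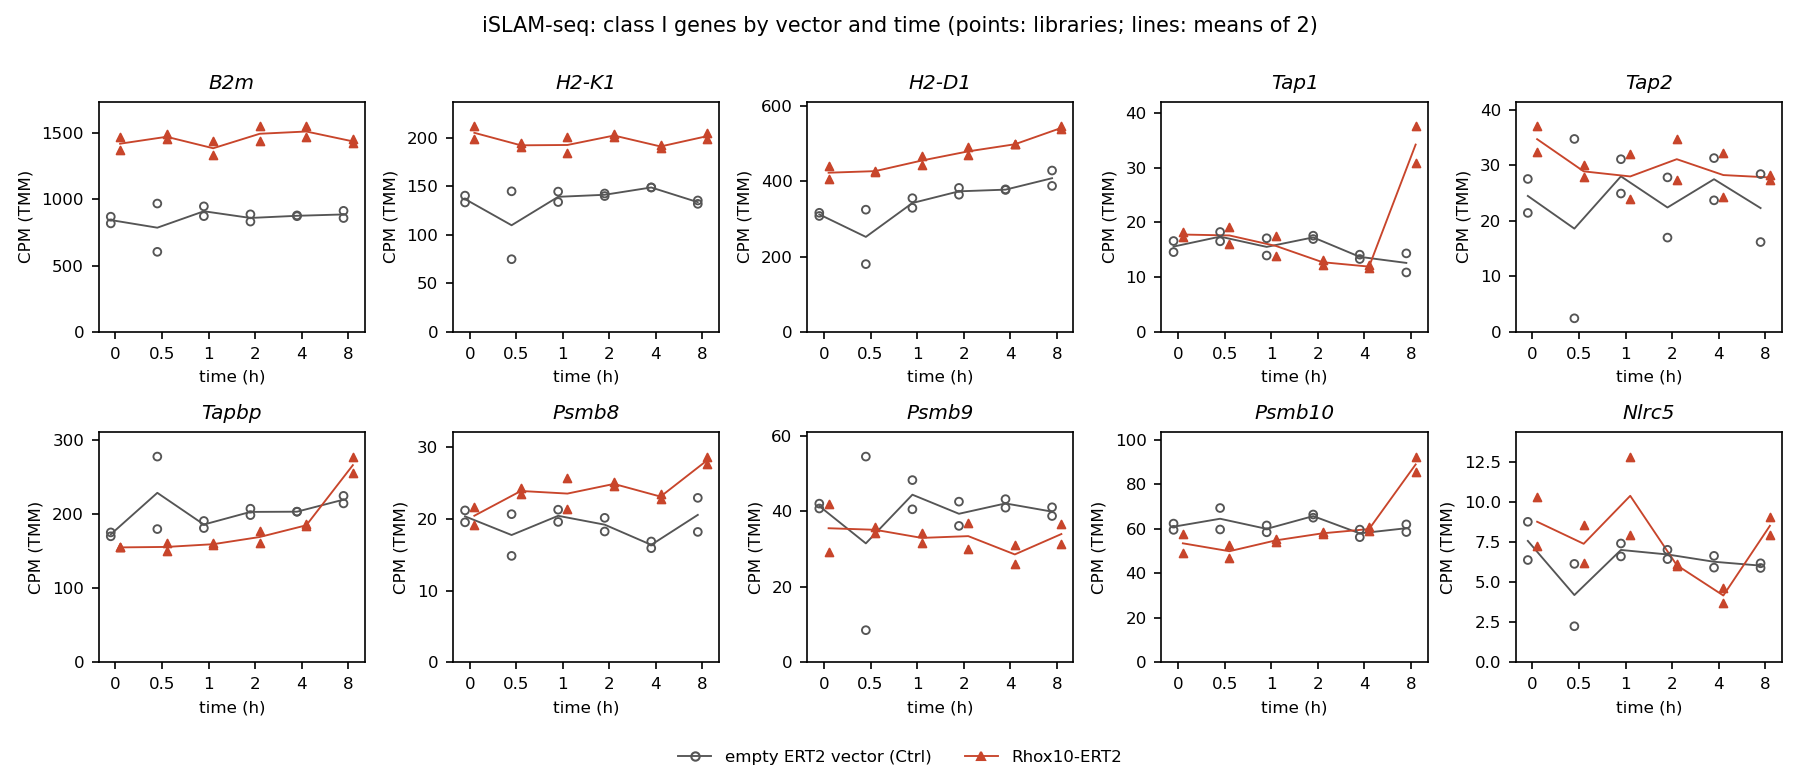
CPM (TMM-scaled) of the 10 class I genes in iSLAM-seq at 0, 0.5, 1, 2, 4 and 8 h, with 1 point per library, circles for the empty vector and triangles for Rhox10-ERT2, and lines through the means of 2. B2m, H2-K1 and H2-D1 are apart at every time, while Tap1, Tapbp and Psmb10 turn upward in Rhox10 cells at 8 h; the stray Ctrl point at 0.5 h, low in most panels and high for Tapbp, is replicate 2.

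The differences at 0 h were 0.75 on the log2 scale for B2m (standard error 0.117, edgeR quasi-likelihood adjusted p = 0.00014), 0.58 for H2-K1 (standard error 0.155, edgeR adjusted p = 0.0159) and 0.44 for H2-D1 (standard error 0.140, edgeR adjusted p = 0.0462). At 8 h they were 0.70 for B2m, 0.59 for H2-K1 and 0.41 for H2-D1. The difference between vectors did not pass the test for a change from 0 to 8 h in these 3 genes: the estimates were -0.05 for B2m, 0.01 for H2-K1 and -0.03 for H2-D1. Their intervals of 2 standard errors reached from -0.43 (H2-K1) to 0.45 (H2-K1), and without the pair of Ctrl libraries at 0.5 h they lay between -0.15 (B2m) and 0.22 (H2-K1). Leaving out any 1 of the 4 libraries at 0 h ended the 0 h calls of H2-K1 (0.53 to 0.63) and H2-D1 (0.37 to 0.49). At 8 h, leaving out any 1 of the 4 libraries ended that of H2-D1 (0.35 to 0.51), and leaving out Ctrl replicate 1 ended that of H2-K1 (0.61). Without the Ctrl pair at 0.5 h all 3 were called at both times, with adjusted p of at most 5.64e-10. The call of B2m held in every one of these fits.

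Stromal markers also differed at 0 h, where 4 of 8 were called higher and 1 lower in Rhox10 cells. Their sum at 0 h was 1963 and 2020 CPM in Rhox10 against 1593 and 1463 CPM in Ctrl libraries, and at 8 h it was 1223 and 1192 CPM against 1167 and 1118 CPM. At 8 h 2 of the 8 stromal markers were called higher and 1 lower. Of the 10 germ cell markers 4 were called lower in Rhox10 cells at 0 h and 6 at 8 h. The part of these markers in the class I results was not tested. In bulk libraries fewer cells of a type and less RNA per cell cannot be told apart.

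At 0 h, 3 of the 10 class I genes were called higher and 0 lower, where 6.56% of the 20642 genes tested were called higher and 4.32% lower. Their median difference was 0.20 against 0.0044 over all genes. Without the Ctrl pair the same 3 of 10 were called, all higher, against 18.8% of 20510 genes called in either direction. With all libraries B2m was called at 1 h (0.61; 6.00% of genes were called higher and 3.90% lower), B2m (0.80) and H2-K1 (0.52) at 2 h (6.08% and 3.94%), and B2m (0.79) at 4 h (6.47% and 5.74%). More were called without the Ctrl pair, in both directions. At 1 h B2m (0.62), H2-K1 (0.48) and H2-D1 (0.42) were then higher and Psmb9 (-0.42) and Tapbp (-0.21) lower, against 9.76% and 7.39% of genes. At 2 h B2m (0.81), H2-K1 (0.53) and H2-D1 (0.38) were higher and Tapbp (-0.25) lower (9.92% and 7.12%), and at 4 h B2m (0.81), H2-K1 (0.39), H2-D1 (0.42) and Psmb8 (0.52) were higher and Psmb9 (-0.53) lower (10.7% and 8.56%). At 0.5 h B2m, H2-K1 and H2-D1 were called higher and Psmb10 (-0.37) and Tapbp (-0.55) lower, against 7.94% and 6.51% of genes. That comparison rests on the Ctrl pair that stood apart, and a fit of the 0.5 h libraries alone called none of the 10 and 0 genes in all with edgeR, where 4 of the 10 and 2336 of 17436 genes had an unadjusted p under 0.05.

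The next question was which of the genes changed after the hours began. Tap1, Psmb10 and Tapbp rose between 0 and 8 h in Rhox10 cells. TAP1 is a subunit of the peptide transporter, PSMB10 is the immunoproteasome subunit that takes the place of PSMB7, and tapasin, the product of Tapbp, holds the transporter to the empty heavy chain. At 4 h the Rhox10 libraries of Tap1 and Tapbp lay below the Ctrl libraries and those of Psmb10 overlapped them, and at 8 h the Rhox10 libraries of all 3 lay above.

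Tap1 was at 37.5 and 30.9 CPM in the Rhox10 libraries at 8 h. Its other 10 Rhox10 libraries ran from 11.6 (median 14.9) to 19.2 CPM, and its 12 Ctrl libraries from 10.9 (median 15.6) to 18.2 CPM. Both 8 h Rhox10 libraries thus lay above all 22 others. Rhox10 minus Ctrl came to 0.19 at 0 h and to 1.44 at 8 h, which is 2.71-fold. Its change from 0 to 8 h was 1.25 (standard error 0.251, edgeR adjusted p = 0.00517). Without Ctrl replicate 1 at 8 h, the lowest Tap1 library, the change was 1.10 and no longer called (edgeR adjusted p = 0.0528), and without the Ctrl pair at 0.5 h it was 1.28 (edgeR adjusted p = 0.000493).

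Psmb10 was at 92.4 and 85.3 CPM in the Rhox10 libraries at 8 h and at 61.9 and 58.5 CPM in the Ctrl libraries. From 0 to 4 h its Rhox10 libraries ran from 46.9 (median 56.5) to 60.9 CPM, so both 8 h libraries were above all earlier ones. The difference moved from -0.19 at 0 h to 0.56 at 8 h, a change of 0.75 (standard error 0.1502, edgeR adjusted p = 0.00516) that stayed called in every alternative fit. Within Rhox10 cells the rise from 0 to 8 h was 0.73, and within Ctrl cells the change was -0.02 (interval of 2 standard errors -0.23 to 0.20).

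Tapbp was at 255 and 276 CPM in Rhox10 and 224 and 214 CPM in Ctrl libraries at 8 h. Up to 4 h the order was the reverse, with 150.1 to 186 CPM (median 161) in Rhox10 and, without the 0.5 h pair, 169.8 to 207 CPM in Ctrl libraries, and at each of those times the groups did not overlap. Tapbp rose by 0.78 in Rhox10 cells between 0 and 8 h (standard error 0.118, edgeR adjusted p = 9.5e-05). In Ctrl cells it changed by 0.35, which was not called with all libraries (edgeR adjusted p = 0.0841) and was without the pair at 0.5 h (0.33, edgeR adjusted p = 5.67e-05). The change of the difference between vectors was 0.43 and not called with all libraries (edgeR adjusted p = 0.211). Without the Ctrl pair it was 0.46 and called (edgeR adjusted p = 0.00014).

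**Figure D2:**
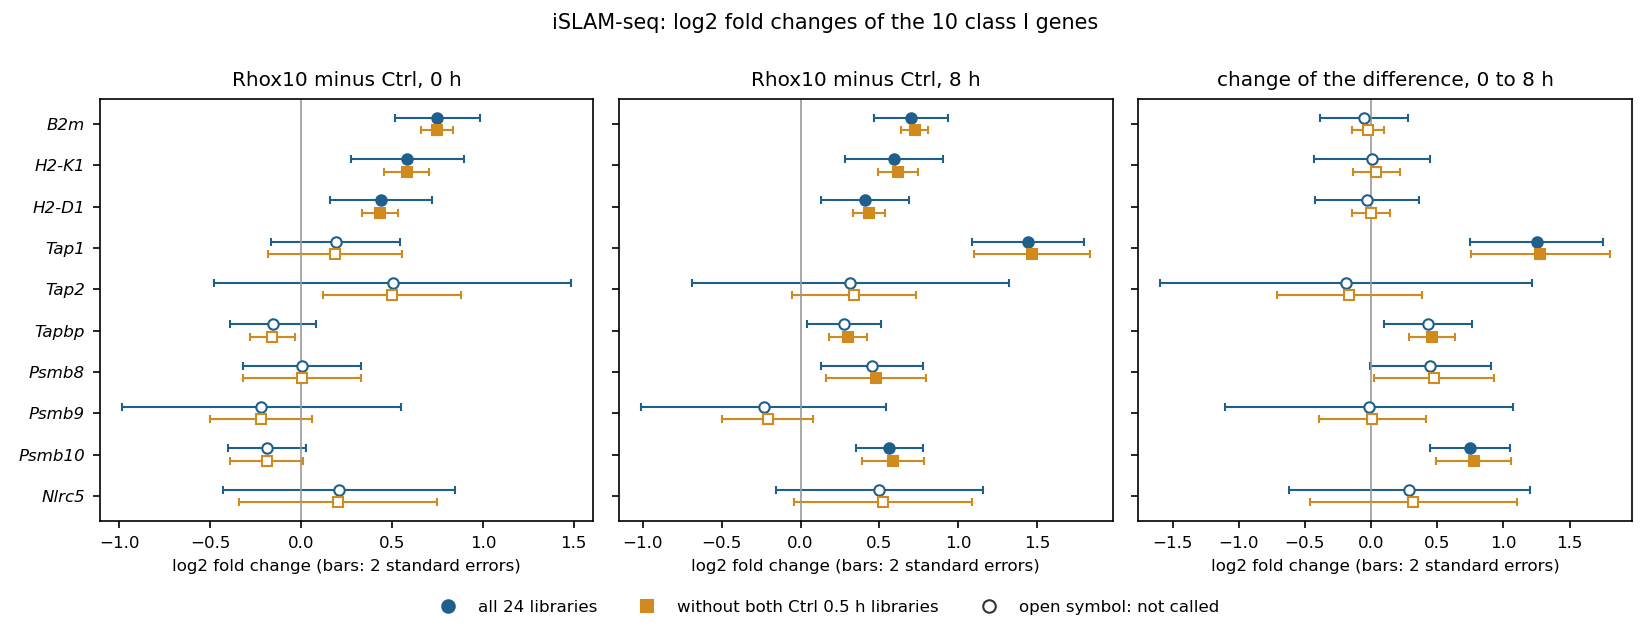
Log2 fold changes of the 10 class I genes for Rhox10 minus Ctrl at 0 h and at 8 h and for the change between them, with bars of 2 standard errors, circles for all 24 libraries, squares for the fit without both Ctrl 0.5 h libraries, and filled symbols for calls at an adjusted p under 0.05. Tap1 (1.25) and Psmb10 (0.75) changed in both fits and Tapbp in the fit without that pair, while the changes of B2m, H2-K1 and H2-D1 sit near 0.

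The remaining members were not called for a change of the difference. Psmb8, the subunit that replaces PSMB5, was at 27.7 and 28.7 CPM in Rhox10 and 22.96 and 18.2 CPM in Ctrl libraries at 8 h, a difference of 0.45 that missed the threshold (edgeR adjusted p = 0.0567) and was called without the Ctrl pair at 0.5 h (0.48, edgeR adjusted p = 0.0204). It was also called at 8 h with DESeq2, with library totals, with a stricter filter and in the fit of the 8 h libraries alone. Its Rhox10 libraries ran from 19.2 (median 23.9) to 28.7 CPM over the course and its Ctrl libraries from 14.9 (median 19.6) to 22.96 CPM. Psmb9, the subunit that replaces PSMB6, lay from 26.0 (median 33.0) to 41.9 CPM in Rhox10 and, without the 0.5 h pair, from 36.1 (median 41.01) to 48.3 CPM in Ctrl libraries. Its change from 0 to 8 h was -0.02 with an interval of -1.11 to 1.08, which narrowed to -0.39 to 0.41 without the pair. That interval lies below the Tap1 interval of 0.76 to 1.80 from the same fit, although the RefSeq starts of the genes are 226 bases apart in the window shown above.

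Tap2, the other subunit of the transporter, ran from 23.9 (median 29.1) to 37.0 CPM in Rhox10 and, without the 0.5 h pair, from 16.2 (median 26.2) to 31.3 CPM in Ctrl libraries. Its difference at 0 h was 0.50 and not called (edgeR adjusted p = 0.599; 0.0544 without the pair), and its change was -0.19 (interval -1.59 to 1.21), and -0.16 (-0.71 to 0.38) without the pair. The 2 transporter subunits therefore had intervals that did not meet in that fit. Nlrc5 was low throughout, from 3.73 (median 7.62) to 12.9 CPM in Rhox10 and from 2.25 (median 6.43) to 8.79 CPM in Ctrl libraries, and its change was 0.29 (interval -0.62 to 1.20). Without the pair the Nlrc5 interval was -0.46 to 1.10, which overlaps that of Tap1.

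At 8 h, 5 of the 10 were called higher and 0 lower (B2m, H2-K1, H2-D1, Psmb10 and Tap1), where 8.06% of 20642 genes were called higher and 8.79% lower. Without the Ctrl pair Tapbp and Psmb8 joined them, against 12.8% and 11.9% of 20510 genes. For the change of the difference, 2 of 10 were called higher and 0 lower (0.872% of genes higher, 1.70% lower), and 3 of 10 without the pair (2.78% and 3.86%). The median change was 0.15 for the 10 genes and -0.02 for all genes. A test for any change of the difference from 0 h over the 5 later times called Tap1 (edgeR adjusted p = 0.000489) and Psmb10 (edgeR adjusted p = 0.00527), where 2.39% of genes were called. Within Rhox10 cells from 0 to 8 h, Tap1 (0.94), Tapbp and Psmb10 were called higher and 0 lower (3.12% and 4.06% of genes), and H2-D1 (0.37) and Psmb8 (0.47) joined them without the pair (6.14% and 7.23%). Within Ctrl cells none of the 10 was called in either direction (3.84% and 2.68% of genes; 2 of them, H2-D1 and Tapbp, had an unadjusted edgeR p under 0.05, and DESeq2 called 0), and H2-D1 (0.37) and Tapbp were called higher without the pair (6.97% and 6.71%).

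Scaling bears on these splits. Setting the libraries to 21 germline genes moved the median of all genes by 0.26 to 0.33 at the 6 times and turned the calls at 0 h from 1354 higher and 892 lower to 3265 and 127, and those at 8 h from 1663 and 1814 to 4860 and 419. With library totals the 8 h calls were 2012 higher and 1362 lower. For the change of the difference the 180 higher and 350 lower calls became 253 and 264 with library totals and 185 and 214 with the germline list. Within Rhox10 cells 644 higher and 838 lower became 747 and 499 with the germline list, and within Ctrl cells 792 and 553 became 684 and 728 with library totals. No class I gene called at 0 h, at 8 h or for the change reversed its sign under any of these scalings. With library totals H2-D1 lost its call at 0 h, which left 2 class I genes called there. At 8 h 7 were called with library totals and 7 with the germline list.

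Of the transcription factors that act on class I promoters, 13 were examined, and all 13 were tested. For the change of the difference 2 were called higher, Stat2 and Irf9, which both act in type I interferon signalling, and Nfkb1 was called lower. Stat2 was at 68.0 and 72.4 CPM against 16.1 and 17.7 CPM at 8 h, a change of 1.99, and Irf9 at 120.0 and 129.7 CPM against 52.2 and 48.8 CPM, a change of 0.96. The values at 0 h were much closer: Stat2 26.8 ± 3.37 CPM (SD, n = 2) in Rhox10 and 25.6 ± 4.04 CPM (SD, n = 2) in Ctrl cells, Irf9 57.8 ± 0.457 and 45.5 ± 5.18 CPM. Nfkb1, a subunit of NF-kappa B, fell by 0.88 in Rhox10 cells (edgeR adjusted p = 0.000832), from 49.8 ± 7.54 CPM (SD, n = 2) at 0 h to 27.0 ± 2.17 CPM at 8 h, with 31.0 ± 5.002 and 30.1 ± 0.697 CPM in Ctrl cells, a change of the difference of -0.84 (edgeR adjusted p = 0.0493) that was not called under any of the 3 other scalings (-0.83 to -0.76).

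**Figure D3:**
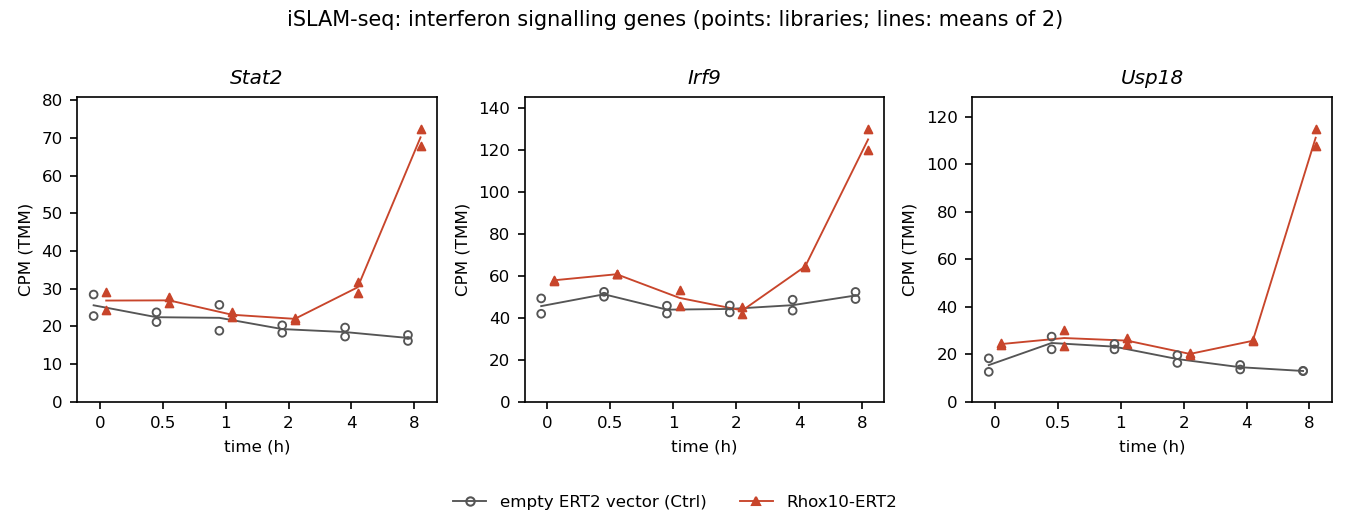
CPM (TMM-scaled) of Stat2, Irf9 and Usp18 in iSLAM-seq by hour, with 1 point per library, circles for the empty vector and triangles for Rhox10-ERT2, and lines through the means of 2. Both 8 h Rhox10 libraries stand above all others for each of these genes.

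Of 15 interferon ligand, receptor and signalling genes 10 were tested. Usp18, an interferon-induced brake on the type I receptor, was called higher for the change (2.45, standard error 0.241, edgeR adjusted p = 5.55e-07), at 108 and 115 CPM in Rhox10 and 13.0 and 12.8 CPM in Ctrl libraries at 8 h. The other 9 were not called with all libraries. Without the Ctrl pair at 0.5 h, in a fit whose genes were named after seeing it, Socs1 (1.05) was also called higher, and Ifngr1 (-0.61), Jak1 (-0.17), Jak2 (-0.79) and Socs3 (-0.34) lower. None of the 3 constitutive proteasome subunits replaced in the immunoproteasome was called for the change (-0.05 to 0.30), nor was any of 4 proteasome activator and assembly genes (-0.15 to 0.25). None of 9 peptide loading and trimming genes was called (-0.28 to 0.80), nor any of the 13 tested of 18 other class I genes (-1.24 to 3.68) or the 5 tested of 10 class II genes (-0.97 to 0.15). In these 5 lists edgeR gave an unadjusted p under 0.05 for 2 loading and trimming genes and 1 class II gene, and DESeq2 called 0. Without the Ctrl pair, in the loading and trimming list Tpp2 (0.35) was called higher and Calr (-0.26) and Hspa5 (-0.17) lower.

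Over the 12 group means of log2 CPM, the 6 other genes most like the mean profile of the 10 (each centred, genes of at least 5 CPM) were Wdfy1 (Pearson r = 0.93), Helz2 (0.93), Cpox (0.92), Snx15 (0.92), Ncoa3 (0.92) and Lats1 (0.91). These are descriptions over means that share libraries, including the Ctrl pair that stood apart. The class I genes themselves ran from -0.05 (Tapbp) to 0.87 (H2-D1) with that mean, so the profile was not shared by all of them.

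In sorted germ cells the question was how the same genes differ between genotypes. H2-K1, Nlrc5 and Tap1 were higher and Tapbp was lower in the libraries labelled null, and B2m, H2-D1 and Psmb10 were not called. H2-K1 was at 4.91, 3.31, 4.21 and 5.38 CPM in libraries labelled null and at 2.26, 2.91, 1.02 and 2.04 CPM in wild-type ones. All 4 libraries labelled null lay above all wild-type ones, a log2 fold change of 1.10 (2.14-fold; standard error 0.231, edgeR adjusted p = 0.000202). Nlrc5, the class I activator, was at 1.97, 3.58, 3.12 and 2.42 CPM against 1.35, 0.767, 0.509 and 1.22 CPM, again without overlap (1.47, standard error 0.306, edgeR adjusted p = 0.000181). These rest on 25 to 45 counts of H2-K1 against 6 to 19, and on 18 to 27 counts of Nlrc5 against 3 to 9. Both genes passed the filter on low counts only with the libraries labelled null, so their separation carries the limit given below.

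Tap1 was at 1.53, 2.25, 1.68 and 1.75 CPM against 0.602, 0.614, 1.70 and 0.950 CPM, and wild-type replicate 3 overlapped the libraries labelled null. Its change of 0.91 (standard error 0.334, edgeR adjusted p = 0.0291) was no longer called with DESeq2 (0.91), without the filter on low counts (0.91), or without null replicate 2 (0.79) or wild-type replicate 1 (0.73), 2 (0.74) or 4 (0.90). Tapbp was at 12.9, 13.1, 14.7 and 11.4 CPM against 16.2, 16.7, 18.5 and 16.4 CPM, a change of -0.37 (standard error 0.0957, edgeR adjusted p = 0.00192). This direction depends on the scaling: with library totals the change was -0.02 and not called, and with the germline list it was 0.45 and called higher.

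**Figure D4:**
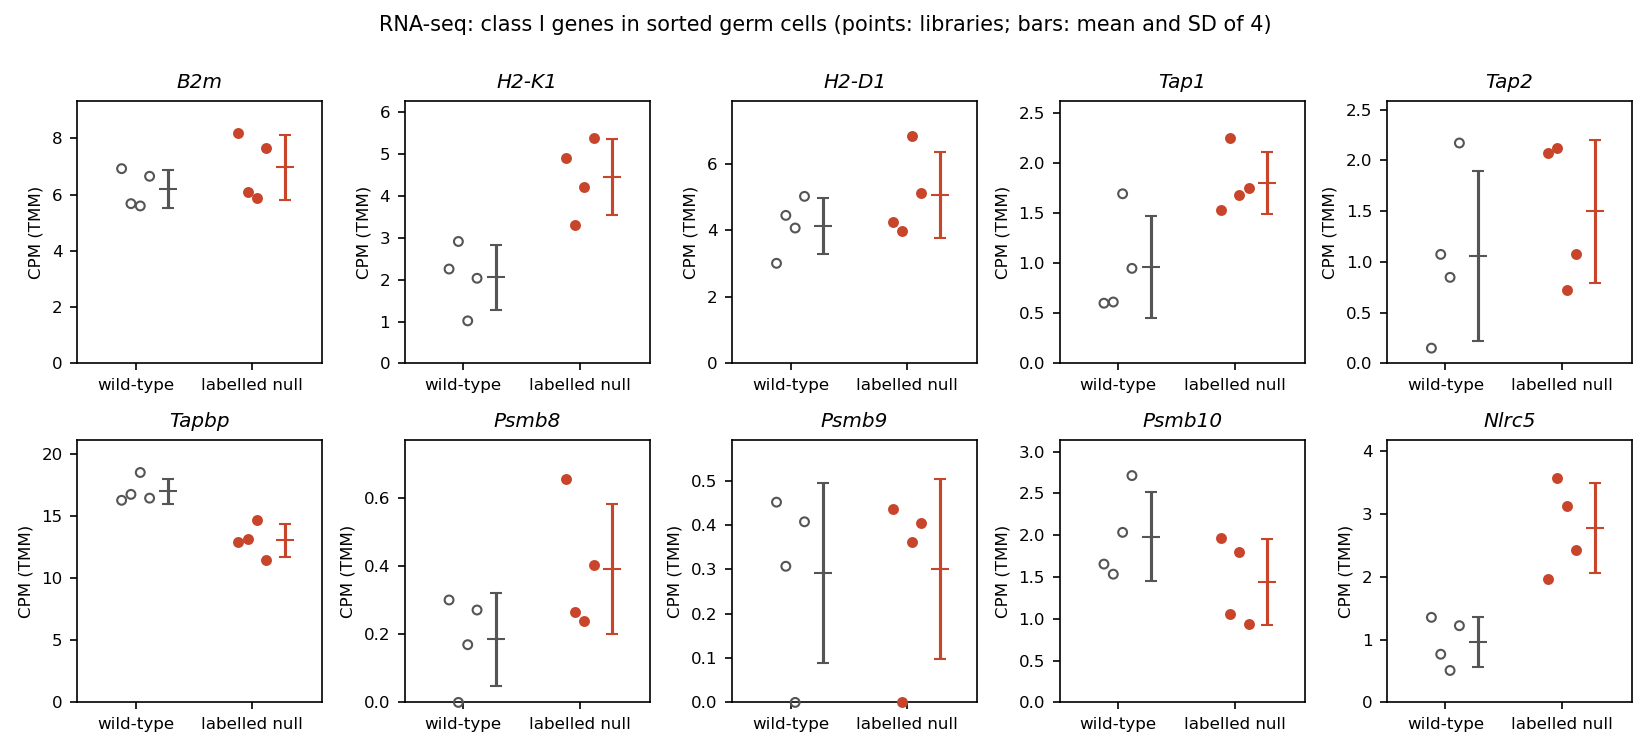
CPM (TMM-scaled) of the 10 class I genes in RNA-seq of sorted germ cells, with 1 point per library (4 wild-type, open; 4 labelled null, filled) beside the mean and SD. H2-K1 and Nlrc5, which passed the filter on low counts only with libraries labelled null, separate upward at this scaling. Tapbp separates downward, while Psmb8 and Psmb9 sit below 1 CPM in every library.

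B2m was at 5.59 to 6.92 CPM in wild-type and 5.89 to 8.19 CPM in libraries labelled null (0.16, interval -0.13 to 0.46), and H2-D1 at 3.01 to 5.02 and 3.97 to 6.85 CPM (0.28, -0.10 to 0.66). Both were called higher with library totals (0.51 for B2m and 0.63 for H2-D1) and with the germline list (0.99 and 1.10). Psmb10 was at 1.53 to 2.71 and 0.942 to 1.97 CPM (-0.44, interval -1.03 to 0.15). Tap2, Psmb8 and Psmb9 were too low in RNA-seq to be tested: Tap2 had 1 to 16 counts in wild-type and 6 to 19 in libraries labelled null, Psmb8 0 to 2 and 2 to 6, and Psmb9 0 to 3 and 0 to 4.

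Of the 10 genes 7 passed the filter on low counts, and the calls above stand beside 18.6% of 13538 genes called higher and 18.9% lower. The filter needed 4 libraries at its level, and Nlrc5, Tap1 and H2-K1 passed only with the libraries labelled null. All 4 of these reached the level for each gene, against 0 wild-type libraries for Nlrc5, 1 for Tap1 and 3 for H2-K1. The adjusted p-values given above for these genes carry the same limit, and so does the lack of overlap of Nlrc5 and H2-K1. A share of the tested genes called higher is therefore not read as a result. The split over all genes, 2518 higher and 2553 lower, became 7229 and 629 with library totals, which moved the median of all genes by 0.35, and 11849 and 84 with 20 germline genes, which moved it by 0.82. With TMM, 19 of those 20 genes were called lower in libraries labelled null.

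Markers of several other cell types were also higher in the libraries labelled null. Of 12 leukocyte markers 10 were tested and 5 called higher, with a sum of 43.9 to 54.2 CPM in libraries labelled null against 32.5 to 36.3 CPM. Of 8 endothelial markers 7 were tested and 4 called higher (43.8 to 47.9 against 31.4 to 36.6 CPM). All 8 stromal markers were tested and called higher (709.5 to 752 against 449 to 473 CPM). Of 6 Leydig markers 5 were tested and 4 called higher (46.3 to 56.1 against 34.2 to 36.0 CPM). Of 8 erythroid markers 6 were tested and all 6 called higher (78.9 to 88.1 against 1.36 to 4.07 CPM). With so low a wild-type sum, erythroid markers could pass the filter almost only through the libraries labelled null, so their calls carry the limit given above. Of the 10 germ cell markers 9 were called lower (139.9 to 149.9 against 274 to 283 CPM). Of the 8 Sertoli markers 1 was called higher and 1 lower (532 to 559 against 488 to 529 CPM). None of these lists had a marker at 0 in all libraries. Their part in the class I results was not tested.

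To compare genes of different length, counts per kilobase of gene model were scaled to the same total in every library (TPM), without TMM scaling. Wild-type levels in TPM were 4.31 ± 0.696 (SD, n = 4) for B2m, 2.79 ± 0.319 for Tapbp and 0.967 ± 0.279 for H2-D1. They were 0.707 ± 0.266 for Psmb10 and 0.413 ± 0.148 for H2-K1. The ranges of B2m, Tapbp and H2-D1 did not overlap each other, while H2-D1 overlapped Psmb10 and Psmb10 overlapped H2-K1. Tap2 (0.176), Tap1 (0.106), Nlrc5 (0.0678), Psmb9 (0.0475) and Psmb8 (0.0333) followed with overlapping ranges. In these libraries the constitutive subunits were far above the immunoproteasome subunits that replace them. Psmb5 was at 4.57 ± 1.05 against Psmb8, Psmb6 at 7.85 ± 0.825 against Psmb9, and Psmb7 at 4.04 ± 0.402 against Psmb10. In iSLAM-seq Ctrl cells at 0 h Psmb5 (mean 87.1 against 20.4 CPM) and Psmb6 (424 against 41.4 CPM) were also above. Psmb7 was below Psmb10 there (9.68 against 60.9 CPM).

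All 3 constitutive subunits were called lower in libraries labelled null (Psmb6 -0.76, Psmb7 -0.64, Psmb5 -0.53), as were 3 of 4 proteasome activator and assembly genes (Psme3 -0.62, Pomp -0.57, Psme2 -0.41). These directions depend on the scaling: with library totals Psmb6 (-0.41), Psmb7 (-0.29) and Psme3 (-0.27) were still called lower, and with the germline list none was, while Psme2 (0.41) and Psme3 (0.20) were called higher. Of 8 tested loading and trimming genes 6 were higher and 1 lower, among them Lnpep (0.41), Hspa5 (0.34) and Calr (0.26) higher and Pdia3 (-0.24) lower, which turned to 0.11 with library totals and to 0.59 and a call with the germline list. Of 4 tested other class I genes H2-Q4 was higher (1.31), and of 2 tested class II genes H2-Ab1 was (0.95). H2-Ab1 was low, at 1.44 to 2.29 CPM in libraries labelled null against 0.678 to 1.22 CPM. H2-Q4 was at 3.18 to 4.26 against 1.19 to 1.80 CPM. Both passed the filter on low counts only with the libraries labelled null, so their calls carry the limit given above for Nlrc5, Tap1 and H2-K1. The class II gene H2-Aa, which was not tested, lay the other way, at 0.662 to 1.20 against 1.36 to 2.61 CPM. Of 13 transcription factors 6 were higher, with Irf1 (0.37), Nfya (0.32), Irf9 (0.69) and Irf2 (0.54) those of smallest p, and Nfyb (-0.38), named after its value was seen, was lower (-0.03 with library totals, 0.44 and called higher with the germline list). Of 9 tested interferon ligand, receptor and signalling genes Socs3 (0.72) and Ifnar2 (0.66) were higher. Stat2, which rose in the time course, was not called here (0.19, interval -0.13 to 0.51). The germline scaling moved the median of all genes by 0.82. Of the TMM changes in this paragraph, called or not, only those of H2-Q4 and H2-Ab1 were larger.

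The last comparison set the class I genes against RHOX10 binding. The authors' list holds 5147 CUT&Tag peaks, 4380 of them within 3 kb of a start site. None of the 10 class I genes was annotated to a peak at any distance, where 21.6% of genes tested in iSLAM-seq and 29.4% of those tested in RNA-seq had a peak annotated to them, and 19.8% and 27.3% had one within 3 kb. The nearest peaks were 14.1 kb (Tapbp), 20.9 kb (H2-D1), 29.1 kb (B2m), 31.1 kb (H2-K1), 36.4 kb (Psmb10) and 47.4 kb (Nlrc5) away and belonged to other genes. For Tap2 (57.2 kb), Psmb8 (65.5 kb), Tap1 (71.8 kb) and Psmb9 (77.1 kb) the nearest was the same peak in an intron of the class II gene H2-Ab1. Among the 13 transcription factors 5 had a peak within 3 kb: Irf2, Rela, Creb1, Nfya and Nfyc. Stat2, Irf9 and Usp18 had none in the list. Of the 15 interferon genes Ifngr1, Ifnar1, Ifnar2, Jak1, Tyk2 and Socs1 had one. Among the 18 other class I genes, H2-Q4 and Cd1d1 had a peak within 3 kb. Signals of the IgG and empty-vector CUT&Tag libraries were not analysed here.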

How the data were processed

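RNA-seq and iSLAM-seq values were the authors' deposited raw read counts per gene, over GENCODE M21 identifiers. Per the submitters' processing notes, RNA-seq reads were aligned with STAR 2.5.2b to GRCm38 and counted with featureCounts, and the notes also name DESeq2. For iSLAM-seq they name limma 3.42.2 and mm10. The deposited counts do not say whether only converted reads were counted. For CUT&Tag the notes name Bowtie2 2.2.5, SAMtools, HOMER and mm10, and the peak scores are the authors' deposited values.

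Genes passing edgeR's filterByExpr were tested with edgeR 4.0.16 (R 4.3.3; limma 3.58.1), TMM scaling and quasi-likelihood tests. The 24 iSLAM-seq libraries shared a fit of 12 group means, and RNA-seq compared 4 libraries with 4. P-values were adjusted over all genes tested (Benjamini-Hochberg), and a gene was called below 0.05. Standard errors were the log2 fold change over the root of the F statistic, and intervals are 2 standard errors. On simulated data with 200 genes changed by 1 on the log2 scale, 194 were recovered for RNA-seq (13 false calls, 13198 genes), 131 for the 8 h difference (3 false, 19929 genes) and 85 for its change (2 false). The changed genes were drawn only from genes with higher mean counts than Nlrc5, Tap1 or Psmb10 had in RNA-seq. The recovery in RNA-seq therefore does not apply to those genes. Alternatives were DESeq2 1.42.0, other scalings and filters, a replicate block, fits of single times and leaving out libraries. The fit without both Ctrl 0.5 h libraries was chosen after seeing the data. Log2 CPM used a pseudocount of 0.5. All 10 genes were named, and of each pathway list up to 4 called genes of smallest p in the change of the difference and in RNA-seq. Other genes named were chosen after their values were seen.

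In the pathway lists, 1 gene was left out and is not reported here. The 10 genes and all lists were chosen with earlier results of these data known. The labels call the iSLAM-seq replicates biological, and RNA-seq libraries are pools, so p-values measure the spread between libraries. Of the identifiers 55450 had a symbol, and 0 further columns of sample values were present.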

Additional observations from a re-analysis of the deposited data

Results flagged for a closer look

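The difference between Rhox10 and Ctrl cells changed from 0 to 8 h, by an edgeR interaction term over all 24 iSLAM-seq libraries, for 2 class I genes and 4 genes of the pathway lists. The change was 1.25 for Tap1 and 0.75 for Psmb10. It was 1.99 for Stat2, 0.96 for Irf9 and 2.45 for Usp18. Nfkb1 changed the other way, by -0.84. Among 20 sets of 4 RNA-seq values of the class I genes, none had a library far enough from the others to stand out by Dixon's test, where chance gives about 1.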

How the results depend on the processing

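Of 622 values of single class I genes under the alternatives, 572 kept their side of the threshold, 27 gained a call and 22 lost it. The remaining 1 reversed with a call (Tapbp in RNA-seq with the germline scaling, 0.45). A change of sign in a gene called in neither fit was counted among the 572, so these need not all have kept their direction. The cause of these shifts was not tested.

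In RNA-seq and at the 6 times counts of genes called rose with the germline scaling (RNA-seq 11933; from 0 to 8 h in order 3392, 4635, 4070, 3362, 4329 and 5279). In RNA-seq library totals gave 7858 and DESeq2 2980. Without both Ctrl 0.5 h libraries the counts at 0, 1, 2 and 4 h were 3852, 3517, 3496 and 3940, with 1362 for the change, 2806 within Ctrl and 2743 within Rhox10 cells. Fits of single times from 0.5 to 8 h gave 0, 3604, 3516, 4816 and 5237.

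Class I genes called at 1 h, each with the genes called in the same fit, were 3 of 2227 with DESeq2, 2 of 2041 with its size factors, 5 of 4070 with the germline scaling, 3 of 2015 with no filter, 2 of 2106 with a stricter one, 2 of 2077 with the replicate block, 5 of 3517 without the Ctrl pair and 5 of 3604 in the single-time fit. At 2 h they were 4 of 3362 with the germline scaling, 4 of 3496 without the pair and 5 of 3516 in the single-time fit. At 4 h they were, in the order given for 1 h, 3 of 2667, 2 of 2484, 5 of 4329, 4 of 2399, 2 of 2576, 3 of 2543, 5 of 3940 and 5 of 4816. The single-time fit called 0 at 0.5 h. Within Ctrl cells 2 were called with no filter and 2 without the pair, and within Rhox10 cells 5 without the pair.

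Leaving out each library gave 4468 to 4687 genes and 3 to 4 class I genes in RNA-seq. In iSLAM-seq the genes called from 0 to 8 h, in order, were 1076 to 3819, 1527 to 5984, 970 to 3544, 1022 to 3542, 1238 to 3992 and 1976 to 5010. The class I genes among them were 1 to 4, 4 to 9, 1 to 5, 1 to 4, 1 to 5 and 4 to 7. For the change it gave 285 to 1405 and 1 to 3, within Ctrl cells 552 to 2778 and 0 to 2, and within Rhox10 cells 724 to 2790 and 3 to 5. A lone library left in a group was assumed to vary like the others.

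Replicate numbers did not pair the libraries: deviations of same-numbered libraries correlated at -0.01 to 0.05 over 4 pairs in RNA-seq and at -0.22 to 0.18 over 132 pairs in iSLAM-seq. With the replicate block, 5066 genes and 4 class I genes were called in RNA-seq, 2314 with 3 at 0 h, 3513 with 6 at 8 h, and for the change 527 with 2. In RNA-seq Tap2, Psmb8 and Psmb9 did not reach the filter's level in enough libraries and were not tested.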
